A study of Arabidopsis thaliana with 48 samples.

Results

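The beta carbonic anhydrases of Arabidopsis thaliana are 6 genes: CA1 (AT3G01500), CA2 (AT5G14740), CA3 (AT1G23730), CA4 (AT1G70410), CA5 (AT4G33580) and CA6 (AT1G58180). They were taken by gene identifier from tables of read counts per transcript model, with the longest model standing for each gene. They are 6 of the 32678 genes in the tables, and all 6 were among the 22586 genes that passed the filter on low counts. The family was chosen by a result already known from these libraries, the low CA1 level in mutant seedlings at 4 d in light. That comparison, and every difference built on it, is therefore given below as a description with no test, and so is every other CA1 value that uses the 4 d light libraries without glucose.

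RNA came from whole seedlings of a mutant and of wild type. The labels name the mutant snrk1a1/a2, after the catalytic subunits of the kinase SnRK1 (KIN10, AT3G01090, and KIN11, AT3G29160), and mark it "kd" in the titles. Both genotypes were sampled at 3 d after germination in the dark, at 4 d in light or in the dark, and at 5 d in light or in the dark. At 4 d, further seedlings of both genotypes and both light settings had received glucose. These are 14 groups of 3 libraries. The way the mutant was made, the time at which light began, the glucose dose and whether replicates were separate cultures are not given in the sources used here, so p-values measure only the spread between these libraries.

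Carbonic anhydrases are zinc enzymes that interconvert carbon dioxide and bicarbonate. The beta class is the main plant class, and its members sit in different compartments: CA1 and CA5 in the chloroplast, CA2 and CA3 in the cytosol, CA4 at the plasma membrane and CA6 in mitochondria. CA1 and CA4 are known for their part in the carbon dioxide response of stomata, and CA1 and CA2 for their abundance in green leaves. SnRK1 is the plant relative of AMPK, a kinase that acts when energy and sugar are scarce.

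Upstream sequence is shown for the members whose levels moved furthest, from TAIR10.1 (RefSeq), whose internal exon ends were identical to those in the count tables for 99.3% of 145152 nuclear exons. Capitals mark matches, on either strand, to the letters GATAAG, to CCAAT or to TATCCA. Each line runs 5′ to 3′ on the gene's own strand.
CA1, chr3:198193-198222, minus strand, a stretch with GATAAG on both strands: ttttcatGATAAGggacCTTATCctctaaa
CA6, chr1:21539930-21539959, minus strand, a stretch with GATAAG: tcttcttctctaGATAAGcttttgccaact
CA2, chr5:4757745-4757855, plus strand, the bases next to the annotated gene start: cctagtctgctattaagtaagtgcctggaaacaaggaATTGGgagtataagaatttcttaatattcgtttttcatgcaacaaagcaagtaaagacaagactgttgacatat
CA3, chr1:8395216-8395465, plus strand, the bases next to the annotated gene start: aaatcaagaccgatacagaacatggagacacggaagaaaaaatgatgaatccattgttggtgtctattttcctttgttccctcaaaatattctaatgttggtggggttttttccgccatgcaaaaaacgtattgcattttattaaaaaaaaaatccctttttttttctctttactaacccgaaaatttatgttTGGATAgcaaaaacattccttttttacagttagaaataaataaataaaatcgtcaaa

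In the 300 bases around the start of the counted model (250 before, 50 after), both strands searched, GATAAG occurred in CA1 (2 matches, at -196 and -186) and CA6 (1 match, at -33) and in no other member, against 15.3% of 26711 promoters of the same length. CCAAT occurred in CA1, CA2, CA4 and CA6, against 50.5% of promoters, and TATCCA in CA3 and CA6, against 15% of promoters. CACGTG, found in 8.09% of promoters, and AAAATATCT, found in 2.64%, were not in these windows. Positions count from the start of the counted model, and no 2 of these matches overlapped. The stretches shown for CA1 and CA6 lie before the counted model but inside the longer gene that RefSeq annotates. The whole searched windows of CA1 and CA4 lie inside their longer annotated genes. The CCAAT match of CA1, at 37, lies inside the counted model. In the 250 bases before the annotated start of CA4 none of the 5 searched words occurred. The matches are a description of letters and not of sites. The 6 counted models lie on chromosome 3 (CA1, 1444 bases), 5 (CA2, 1519 bases), 1 (CA3, 996 bases; CA4, 1353 bases; CA6, 1327 bases) and 4 (CA5, 1361 bases). CA1 and CA2 were 78.1% identical over the aligned coding sequence, with a longest shared run of 42 bases, and CA3 and CA4 were 77.7% identical, with a longest shared run of 27 bases. The other pairs shared runs of at most 15 bases. The 30 bases that CA3 shares with the antisense gene AOR (AT1G23740), and 90 bases that CA5 shares with AT4G33585, could hold reads of either strand, since strand-specific counting is not stated.

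Libraries held 4956025 to 26126836 counts. The 3 d dark titles occur in both numbering series of the titles, and same-numbered columns differed by little more than sampling noise (chi-square per degree of freedom 1.04 to 1.06, against 7.12 to 40.6 between numbers), so they were summed and counted as 1 library each. KIN10 was called higher in mutant seedlings at 5 d in light (1.71 ± 0.40 log2 units, SE, edgeR adjusted p = 0.000528) and did not pass in either direction in the other 5 tested conditions. It measured 245 to 278 RPKM in the mutant light libraries labelled 4 d 1, 5 d 1 and 5 d 3, 36.7 to 89.9 RPKM in the other 18 mutant libraries and 32.2 to 116 RPKM in 21 wild type libraries. KIN11 measured 18.0 to 22.7 RPKM in those 3 libraries, 7.08 to 19.5 RPKM in the other mutant libraries and 8.91 to 28.3 RPKM in wild type, and was called lower in the mutant at 4 d in the dark (-0.47 ± 0.17, edgeR adjusted p = 0.0205) and at 4 d in light with glucose (-1.01 ± 0.18, 0.000542). The sources used here do not give the lesion, so these levels do not settle the labels. In the dark with glucose, the libraries labelled mutant 2 and wild type 2 lay beside the other genotype on the first principal component (-36.4 for the library labelled mutant 2, beside wild type 1 and 3 at -36.6 and -43.2; 20.3 for the library labelled wild type 2, beside mutant 1 and 3 at 10.3 and 12.2). The member results that rest most on these 2 libraries are also given without them.

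CA2 and CA1 made up most of the family's transcripts, and wild type held far more of them than the mutant. Levels are RPKM, counts scaled to the length of the counted model and to TMM-scaled library size, which can be compared between genes. Summed over the 6 members, the mean was 302 to 654 RPKM over the 7 mutant groups and 906 to 4117 RPKM over the 7 wild type groups (302 to 623 and 1082 to 4117 RPKM without the 2 dark glucose libraries that lay beside the other genotype). CA2 averaged 60.9% of the family's mean level, CA1 21.3%, CA4 9.72%, CA6 4.73%, CA5 2.92% and CA3 0.422%. With counts summed over all models of a gene and divided by their mean length, these shares were 71.1%, 14.8%, 7.76%, 4.77%, 1.45% and 0.113%, in the same order of members. That sum counts a read once for every model it overlaps, so it favours members with more models (5 for CA2, 1 for CA3). CA2 had the highest share in every group. The share of CA1 and CA2 together was smallest in the mutant at 5 d in the dark, 13.3% and 35.9%, against 4.96% and 86.1% in wild type of that age. CA4, the plasma membrane member, made up 28.5% of the smaller pool in the mutant at 4 d in the dark, against 4.69% in wild type. Its own level was lower in the mutant there (95.1 RPKM, against 140 RPKM in wild type).

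**Figure D1:**
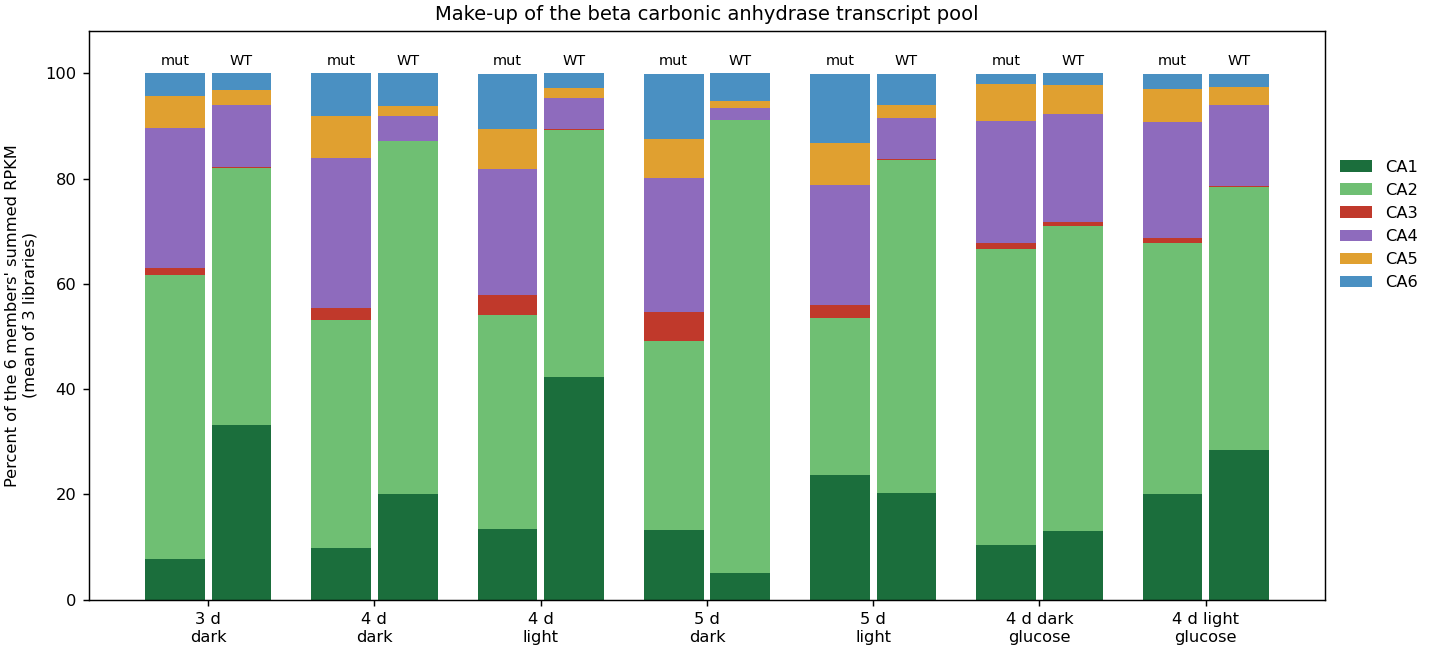
Bars show, for each of the 14 groups, the percentage of the summed RPKM of the 6 genes that each member contributed (mean of 3 libraries), with the mutant bar left of the wild type bar in each condition. CA1 and CA2 fill 91.1% of the wild type bar and 49.2% of the mutant bar at 5 d in the dark.

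The order of the levels differed between members. CA1 was lowest in the mutant at 4 d in the dark (33.6 ± 8.18 RPKM, SD, n = 3) and highest in wild type at 4 d in light (1478 ± 279 RPKM), a ratio of 44.0. Below that first place, the wild type groups at 3 d dark, 4 d dark and 5 d light followed each other with overlapping values, and the 7 mutant groups filled the last 7 places, each overlapping the next. CA2 was lowest in the mutant at 5 d in the dark (112 ± 45.0 RPKM) and highest in wild type of that age and setting (3553 ± 564 RPKM), a ratio of 31.7. CA6 was lowest in the mutant in the dark with glucose (13.1 ± 6.56 RPKM) and highest in wild type at 5 d in the dark (224 ± 79.6 RPKM), a ratio of 17.1 (9.4 RPKM and a ratio of 23.8 without the dark glucose library labelled mutant 2). CA3 ran the other way, from 15.5 ± 3.04 RPKM in the mutant at 5 d in the dark down to 1.6 ± 0.188 RPKM in wild type at 3 d in the dark, and every neighbouring pair of its groups overlapped. CA4 and CA5 spanned the least, with highest over lowest group means of 2.92 and 2.86. Of the 13 steps between neighbours in each member's order, those without overlap numbered 3 for CA1, 4 for CA2, 0 for CA3, 1 for CA4, 4 for CA5 and 1 for CA6. Such steps were not counted for other genes, so whether these numbers are usual is not known.

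**Figure D2:**
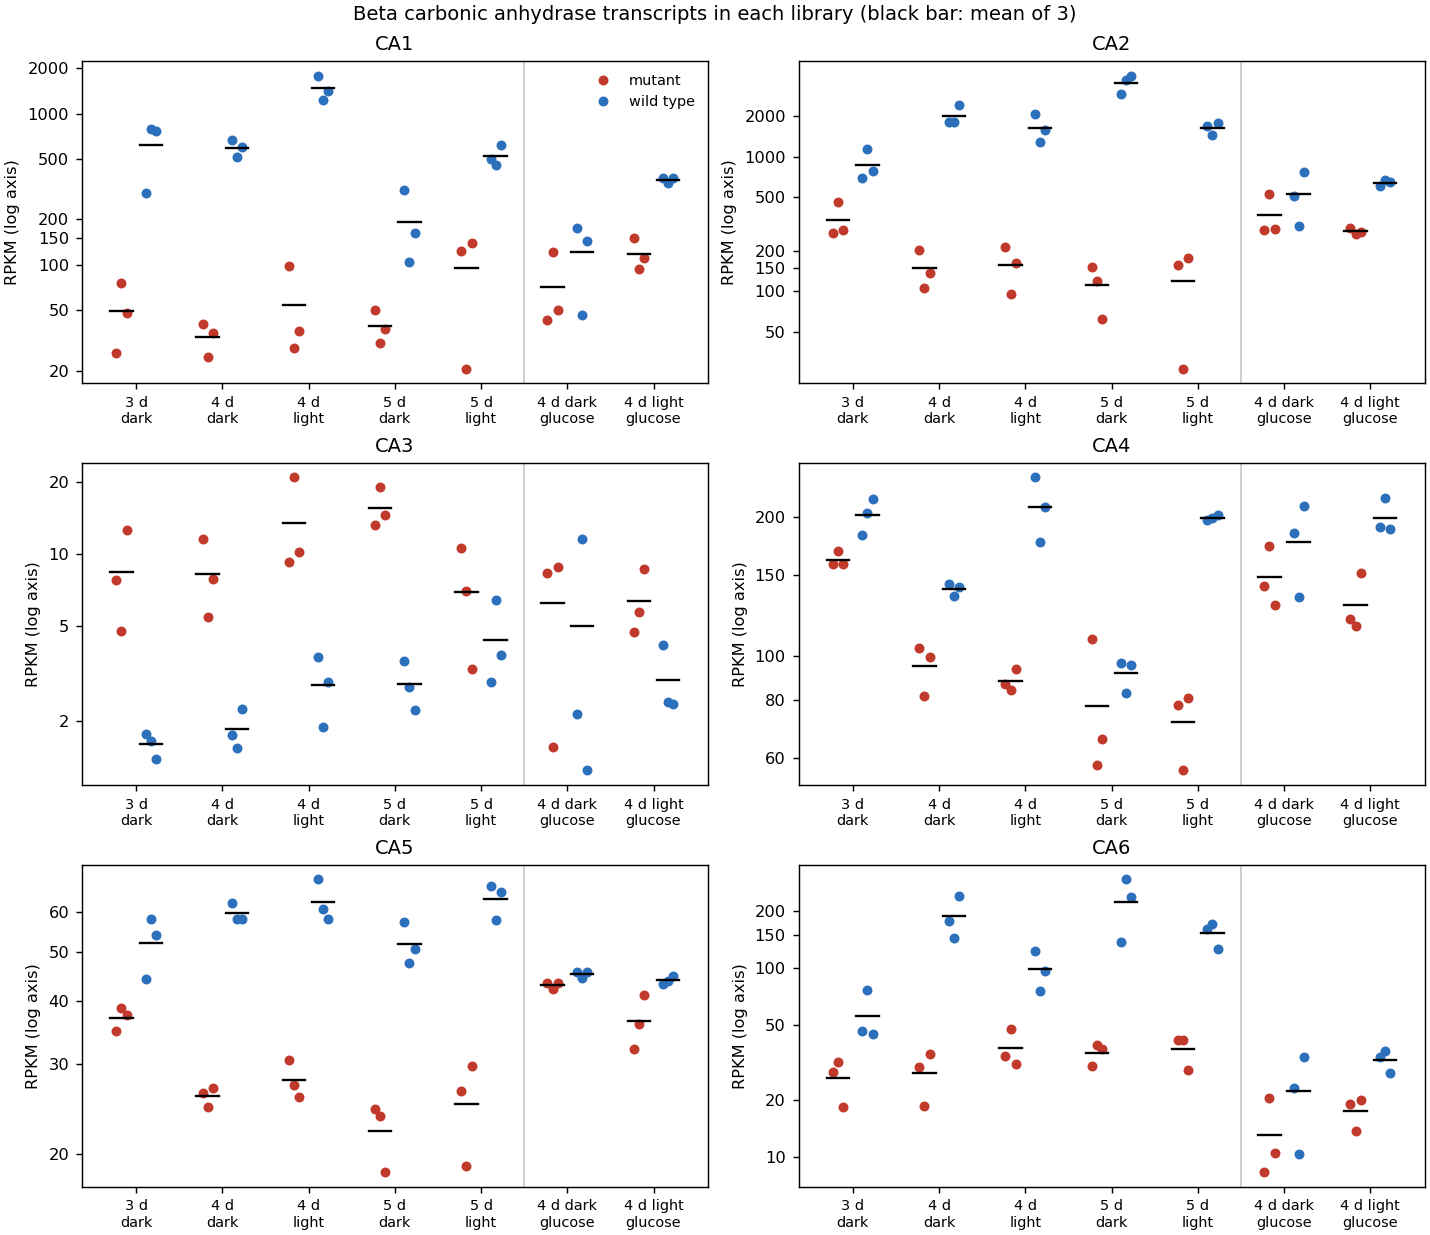
Each point is 1 library's RPKM (log axis, scale set per panel) for 1 member, the mutant left of wild type in each of the 7 conditions, and the black bar is the mean of 3 libraries. The mutant lies below wild type for CA1, CA2, CA5 and CA6 in every untreated condition, and for CA3 it lies above wild type at 3 d, at 4 d and at 5 d in the dark and overlaps it at 5 d in light.

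The mutant was compared with wild type within each of the 7 conditions, with p-values from edgeR's quasi-likelihood test adjusted by Benjamini-Hochberg over all genes. Of 36 member values in the 6 tested conditions, 22 passed an adjusted p of 0.05. In the dark without glucose 4 members fell and 1 rose at 3 d, 5 fell and 1 rose at 4 d, and 4 fell and 1 rose at 5 d. Over all genes, 14.3% fell and 17.3% rose at 3 d, 28.5% fell and 29.5% rose at 4 d, and 31.4% fell and 29.9% rose at 5 d. In light at 5 d 5 members fell and none rose, where 26.4% of all genes fell and 33.4% rose. Groups did not overlap for 6 members at 3 d and at 4 d in the dark, where they did not for 49.7% and 67.8% of all genes, and for 5 members at 5 d in the dark and at 5 d in light, where they did not for 65% and 54.8%. The members' median log2 change was -0.79, -1.98, -1.76 and -1.75 in these 4 conditions, against all-gene medians of 0.01, 0.01, -0.04 and 0.19. In whole seedlings, fewer cells of a type and less RNA per cell cannot be told apart. Green tissue markers (RBCS1A, CAB1, AT2G05100 and RCA) moved with the family: 3 of 4 fell in the mutant at 3 d in the dark, and 4 of 4 at 4 d dark, 5 d dark and 5 d light. Their summed level ran from 2035 to 12611 unscaled RPKM in untreated mutant libraries and from 7288 to 41230 unscaled RPKM in untreated wild type libraries, and their part in the result was not tested. TMM scaling also matters here: with unscaled library sizes every mutant to wild type value would lie 0.13 to 0.45 log2 units higher in the untreated conditions, and 0 of 53 called fold changes would change sign. In wild type the same shift was -0.20 for light over dark at 5 d and -0.18 for 4 d in light over 3 d in the dark. The 53 include CA1 values described below with no test, for glucose in wild type in light and for 5 d over 4 d in wild type in light.

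CA1, the chloroplast enzyme abundant in leaves, had the largest change of the 6 members at 3 d and 4 d in the dark. At 3 d in the dark it measured 26.2, 75.5 and 48.1 RPKM in mutant libraries, against 297, 793 and 772 RPKM in wild type libraries, and at 4 d in the dark 40.5, 24.5 and 35.7 RPKM, against 666, 517 and 605 RPKM. Every mutant library was below every wild type one at both ages. The log2 changes were -3.64 ± 0.59 (SE; adjusted p = 2.26e-05) and -4.15 ± 0.61 (adjusted p = 9.79e-07), or 12.4-fold and 17.7-fold lower. At 5 d it measured in the dark 50.6, 30.6 and 37.8 RPKM in the mutant, against 314, 104 and 163 RPKM in wild type (-2.29 ± 0.56, adjusted p = 0.000807). In light at 5 d CA1 had 124, 20.6 and 140 RPKM in the mutant, against 505, 460 and 620 RPKM in wild type (-2.48 ± 0.57, adjusted p = 0.000375). Here mutant library 2 was far below the other 2, which are the libraries with high KIN10, and the part of KIN10 in the result was not tested. Without the high-KIN10 libraries the change at 5 d in light was -4.64 (adjusted p = 2.87e-05), with 1 mutant library left that is assumed to vary like the other groups. At 4 d in light, the comparison that chose the family, CA1 had 98.9, 28.3 and 36.4 RPKM in the mutant and 1785, 1241 and 1407 RPKM in wild type, a log2 difference of -4.76 ± 0.63, and -5.57 without the mutant library that had high KIN10.

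CA5, the other chloroplast member, changed less and with little spread. It had 26.3, 24.7 and 26.9 RPKM in the mutant at 4 d in the dark, against 62.4, 58.1 and 58.2 RPKM in wild type. Its log2 change was -0.49 ± 0.13 at 3 d dark (adjusted p = 0.00311), -1.20 ± 0.13 at 4 d dark (3.12e-09), -1.23 ± 0.13 at 5 d dark (1.29e-09) and -1.35 ± 0.13 at 5 d light (1.8e-10), and the groups did not overlap in any of these 4. The described difference at 4 d in light was -1.17 ± 0.13.

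CA2, the abundant cytosolic enzyme, had the largest change of the 6 members at 5 d, in the dark and in light. At 3 d it had 270, 462 and 288 RPKM in the mutant, against 694, 1154 and 782 RPKM in wild type. At 4 d it had 202, 106 and 138 RPKM in the mutant, against 1809, 1822 and 2445 RPKM in wild type. At 5 d it had 151, 120 and 62.7 RPKM in the mutant, against 2926, 3718 and 4016 RPKM in wild type. The log2 changes were -1.37 ± 0.42 (adjusted p = 0.0129), -3.77 ± 0.46 (3.85e-08) and -4.99 ± 0.49 (3.89e-10), the last 31.9-fold lower. The call at 3 d was lost without wild type 2 (-1.12, adjusted p = 0.0757), mutant 1 (-1.23, 0.0696) or mutant 3 (-1.26, 0.0557). In light at 5 d CA2 had 157, 26.7 and 176 RPKM in the mutant, against 1685, 1454 and 1792 RPKM in wild type (-3.78 ± 0.46, adjusted p = 2.35e-08). Without the high-KIN10 libraries that change was -5.9, with 1 mutant library left, at 26.7 RPKM. The difference described for 4 d in light was -3.39 ± 0.45.

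CA3, the other cytosolic member, was the only one of the 6 that was called higher in the mutant in any of these conditions, and at low levels. At 3 d in the dark it had 7.72, 4.73 and 12.6 RPKM in the mutant, against 1.76, 1.65 and 1.39 RPKM in wild type. At 5 d in the dark it had 13.2, 19.0 and 14.5 RPKM in the mutant, against 3.57, 2.78 and 2.22 RPKM in wild type. The log2 changes were 2.37 ± 0.58 at 3 d (adjusted p = 0.00226), 2.18 ± 0.61 at 4 d (0.00279) and 2.44 ± 0.60 at 5 d in the dark (0.000727), and every mutant library was above every wild type one. At 5 d in light the groups overlapped (10.5, 7.0 and 3.30 RPKM in the mutant, against 2.90, 6.40 and 3.75 RPKM in wild type), and 0.69 ± 0.60 did not pass (adjusted p = 0.33). At 4 d in light the described difference was 2.25 ± 0.59. Its antisense neighbour AOR, which shares 30 bases, was lower in the mutant in 3 of these 4 tested conditions (-0.92 ± 0.28 at 4 d dark, adjusted p = 0.00526; -1.36 ± 0.29 at 5 d dark, 0.000142; -3.08 ± 0.30 at 5 d light, 2.4e-10), opposite in sign to CA3.

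CA4, at the plasma membrane, was called lower in the mutant at 5 d in light and not at 5 d in the dark. At 5 d in light it had 78.4, 56.4 and 80.8 RPKM in the mutant, against 197, 199 and 202 RPKM in wild type, a change of -1.48 ± 0.18 (adjusted p = 2.52e-08). In the dark at 5 d it had 109, 58.0 and 65.9 RPKM in the mutant, against 96.5, 83.2 and 95.5 RPKM in wild type, and -0.24 ± 0.18 did not pass (adjusted p = 0.25). Mutant library 1 was the high one there: without it the change was -0.56 (adjusted p = 0.00583). The change was -0.55 ± 0.18 at 4 d dark (adjusted p = 0.00869), lost without mutant 2 (-0.46, 0.0528), and -0.32 ± 0.18 at 3 d dark did not pass (0.169). At 4 d in light the described difference was -1.25 ± 0.18.

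CA6, the mitochondrial member, had 29.9, 18.5 and 35.1 RPKM in the mutant at 4 d in the dark, against 178, 145 and 241 RPKM in wild type (-2.75 ± 0.36, adjusted p = 1.15e-07). In the dark at 5 d it had 30.3, 39.2 and 37.2 RPKM in the mutant, against 138, 296 and 237 RPKM in wild type (-2.65 ± 0.36, adjusted p = 1.52e-07). In light at 5 d the change was -2.03 ± 0.35 (adjusted p = 9.06e-06). At 3 d in the dark it was -1.09 ± 0.34 (adjusted p = 0.0136), and this did not pass when wild type 2 (-0.80, 0.116) or mutant 3 (-0.90, 0.0836) was left out. Its described difference at 4 d in light was -1.38 ± 0.34.

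**Figure D3:**
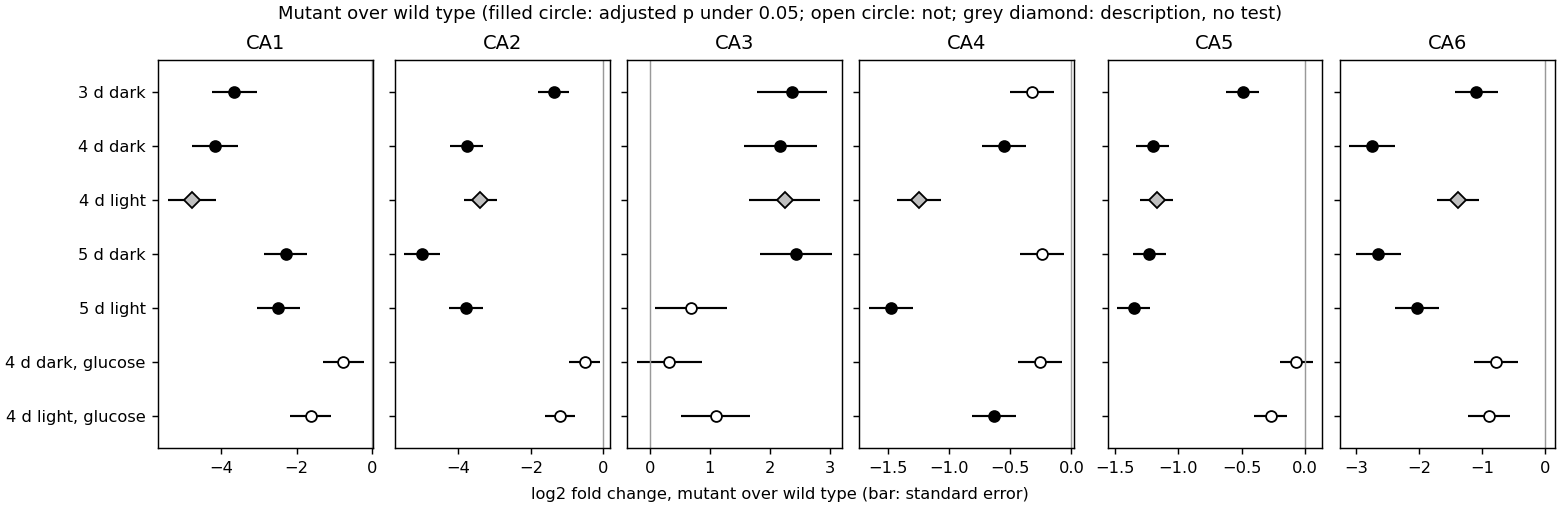
Each symbol is the log2 fold change of 1 member, mutant over wild type, with its standard error, in 1 of 7 conditions (x scale set per panel). Filled circles passed an adjusted p of 0.05, open circles did not, and grey diamonds are the 4 d light values given with no test. CA3 lies right of 0 and the other members left of it, and CA1, CA2, CA5 and CA6 lie nearer 0 with glucose than without. The dark glucose values include the libraries labelled mutant 2 and wild type 2. Without these, CA6 was -1.59 there, further from 0 than at 3 d dark (-1.09) or 4 d light (-1.38). CA1 (-1.77), CA2 (-1.16) and CA5 (-0.08) stayed nearer 0 than in every untreated condition.

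With glucose few members passed between the genotypes. In light with glucose 1 member fell and none rose, where 5.17% of all genes fell and 4.29% rose. CA4 was that member, with 120, 116 and 151 RPKM in the mutant, against 190, 220 and 189 RPKM in wild type (-0.63 ± 0.18, adjusted p = 0.0237). The call was lost without wild type 1 (-0.66, 0.0571), wild type 2 (-0.54, 0.0959), mutant 1 (-0.58, 0.0838) or mutant 2 (-0.56, 0.0849). CA1 had 150, 94.6 and 111 RPKM in the mutant, against 375, 347 and 378 RPKM in wild type, and CA2 297, 267 and 278 RPKM, against 610, 679 and 648 RPKM. For all 6 members the groups did not overlap, as for 34.1% of all genes, but -1.63 ± 0.55 for CA1 (adjusted p = 0.0562) and -1.20 ± 0.42 for CA2 (0.0642) did not pass. Both passed with DESeq2 (0.0216 and 0.0347), and CA1, CA2, CA3 and CA6 passed when the fit held the 2 groups compared and no others (adjusted p 9.34e-05 to 0.0194).

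In the dark with glucose no member passed, 0% of genes rose and 0% fell by edgeR's test, and 532 of 22586 genes had an unadjusted p under 0.05 (DESeq2 called 0 genes, with 634 such p-values). CA1 had 43.3, 122 and 50.6 RPKM in the libraries labelled mutant 1, 2 and 3, against 176, 46.7 and 144 RPKM in those labelled wild type 1, 2 and 3. For CA1, CA2, CA3, CA4 and CA6, the libraries labelled mutant 2 and wild type 2 each lay nearer to the mean of the other genotype's libraries 1 and 3. CA4 had 142, 173 and 129 RPKM in libraries labelled mutant, against 185, 134 and 212 RPKM in libraries labelled wild type. CA3 showed it most plainly, with 8.27, 1.56 and 8.75 RPKM in libraries labelled mutant, against 2.13, 11.5 and 1.24 RPKM in libraries labelled wild type. Without the libraries labelled mutant 2 and wild type 2, 4.63% of 23239 genes passed, CA3 was higher (2.34, adjusted p = 0.00395) and CA6 was lower in the mutant (-1.59, adjusted p = 0.00558). CA1 at -1.77 (0.0943) and CA2 at -1.16 (0.179) did not pass without them. These 2 libraries were singled out because they lay beside the other genotype. Leaving them out therefore widens genotype differences by construction, and these p-values are not an independent test. CA5 had 43.4, 42.2 and 43.4 RPKM in libraries labelled mutant, against 45.7, 44.5 and 45.7 RPKM in libraries labelled wild type. These did not overlap, as for 1 of the 6 members and 6.5% of all genes, but lay close (-0.07 ± 0.13, 95% interval -0.32 to 0.17), and the value was -0.08 without the 2 libraries.

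In wild type CA2, CA5 and CA6 were lower with glucose than without in the dark and in light, and CA1 was lower in the dark. All glucose libraries belong to 1 of the 2 numbering series in the titles, and all untreated 4 d libraries to the other, so glucose and title series cannot be told apart. In wild type 4 members fell and none rose in the dark, where 42.9% of genes passed in either direction, and of the 5 members other than CA1 3 fell and none rose in light, where 36.4% passed. Green tissue markers moved with these members: 2 of 4 fell in wild type in the dark and 3 of 4 in light, and none rose. Their summed level in wild type ran from 7502 to 20030 unscaled RPKM with glucose, against 28124 to 32931 without, in the dark, and from 16797 to 19566 with glucose, against 35660 to 39751 without, in light. Of the 5 Rubisco genes 3 fell in the dark and 5 in light, and the part of these genes in the result was not tested. CA1 had 176, 46.7 and 144 RPKM in the dark with glucose, against 666, 517 and 605 RPKM without (-2.29 ± 0.56, adjusted p = 0.0014). In light it had 375, 347 and 378 RPKM with glucose, against 1785, 1241 and 1407 RPKM without, a described difference of -2.01 ± 0.55. CA6 fell the most in the dark, with 23.1, 10.3 and 33.7 RPKM with glucose, against 178, 145 and 241 RPKM without (-3.07 ± 0.36, adjusted p = 7.05e-08), and by less in light (-1.59 ± 0.34, 0.000452). CA2 changed by -1.92 ± 0.43 in the dark (adjusted p = 0.000496) and -1.36 ± 0.42 in light (0.0111), the second lost without wild type 4 d light 1 (-1.16, 0.0596). CA5 changed by -0.40 ± 0.13 in the dark (0.0111) and -0.51 ± 0.13 in light (0.0016). Without the 2 doubtful dark libraries all 4 dark calls held (CA1 -1.89, CA2 -1.64, CA5 -0.38, CA6 -2.72, adjusted p at most 0.0422), and CA4 passed as higher (0.51, adjusted p = 0.0311, against 0.34 ± 0.18 and 0.122 with all libraries). CA3 in wild type in the dark was 1.44 ± 0.61 with all libraries (adjusted p = 0.0576) and -0.11 without the 2. It passed without wild type glucose 1 (1.80, 0.0259) or 3 (1.90, 0.011). Unscaled library sizes would move the wild type values by 0.26 in the dark and 0.27 in light, with no change of sign among these calls.

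In the mutant CA4 and CA5 were higher and CA6 was lower with glucose, in the dark and in light. In the dark 3 members rose and 1 fell, where 40.7% of all genes passed, and in light 2 of the 5 members other than CA1 rose and 1 fell, where 43% passed. Of the 4 green tissue markers 2 rose in the dark, none rose in light and none fell, with a summed level of 8810 to 16521 unscaled RPKM with glucose, against 3963 to 7614 without, in the dark. In light their summed level was 12532 to 13269 unscaled RPKM with glucose, against 8157 to 11685 without. The part of these markers in the result was not tested. CA5 had 43.4, 42.2 and 43.4 RPKM with glucose in the dark, against 26.3, 24.7 and 26.9 RPKM without (0.73 ± 0.13, adjusted p = 3e-05), and 0.39 ± 0.13 in light (0.0141). CA4 changed by 0.63 ± 0.18 in the dark (adjusted p = 0.00498) and 0.55 ± 0.18 in light (0.0127). CA6 had 8.31, 20.6 and 10.5 RPKM in the dark with glucose, against 29.9, 18.5 and 35.1 RPKM without (-1.09 ± 0.35, adjusted p = 0.012), and changed by -1.10 ± 0.35 in light (0.0106). CA2 had 287, 535 and 293 RPKM in the dark with glucose, against 202, 106 and 138 RPKM without (1.32 ± 0.42, adjusted p = 0.0123). Of these, CA2 in the dark did not pass without the 2 doubtful libraries (0.97, 0.082), while CA4 (0.51, 0.0295), CA5 (0.74, 0.000153) and CA6 (-1.56, 0.00042) did. The calls in light were lost without mutant glucose 3 for CA4 (0.42, 0.0868) and CA5 (0.29, 0.101), without mutant untreated 3 for CA5 (0.34, 0.0623), and without mutant untreated 2 (-0.89, 0.0721) or mutant glucose 2 (-0.95, 0.0603) for CA6. The dark calls were lost without mutant untreated 2 (1.13, 0.0637) or glucose 2 (0.97, 0.0943) for CA2, and without mutant untreated 3 (-0.89, 0.0739), glucose 1 (-0.85, 0.086) or glucose 3 (-0.95, 0.0604) for CA6. With only the groups compared in the fit, CA6 in the dark (-1.09, 0.0572) and CA5 in light (0.43, 0.0763) did not pass. The described difference of CA1 in light was 1.13 ± 0.54, and 1.87 without the mutant library with high KIN10. Without that library CA2 in light passed (1.12, 0.0116, against 0.83 ± 0.42 and 0.108 with it).

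The glucose effect in the dark differed between the genotypes for 4 members, where 37.3% of all genes passed this test. The mutant effect minus the wild type effect was 3.38 ± 0.78 for CA1 (adjusted p = 0.00107), 3.25 ± 0.60 for CA2 (0.000101), 1.12 ± 0.18 for CA5 (1.56e-05) and 1.98 ± 0.49 for CA6 (0.00182). For CA2 and CA5 the effect was positive in the mutant and negative in wild type, both past the threshold. For CA6 it was negative in both. Without the 2 doubtful libraries the differences were 2.38 for CA1 (0.0257), 2.61 for CA2 (0.00323), 1.12 for CA5 (0.000234) and 1.16 for CA6 (0.0524). In light the described differences were 3.14 ± 0.78 for CA1, 2.19 ± 0.59 for CA2, 0.90 ± 0.18 for CA5 and 0.49 ± 0.48 for CA6.

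**Figure D4:**
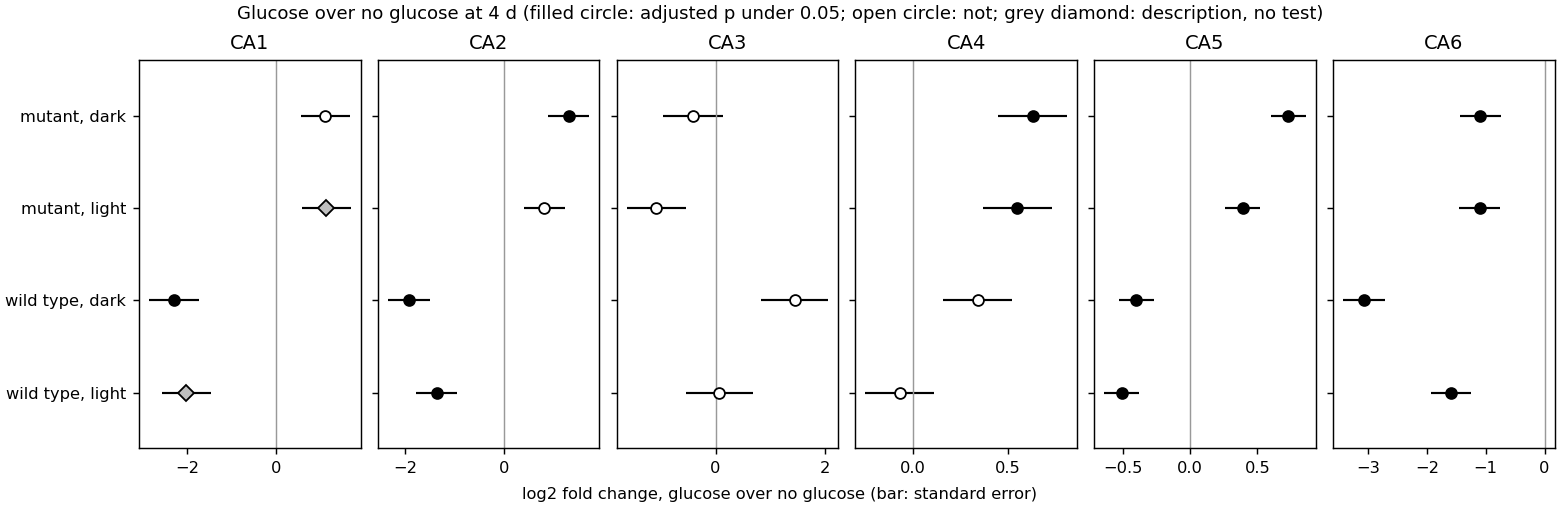
Each symbol is the log2 fold change of 1 member, glucose over no glucose at 4 d, with its standard error, in mutant or wild type seedlings in the dark or in light (x scale set per panel). Filled circles passed an adjusted p of 0.05, open circles did not, and grey diamonds are the CA1 values in light given with no test. CA1, CA2 and CA5 lie right of 0 in the mutant and left of 0 in wild type, while CA6 lies left of 0 in all 4.

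Light against dark moved the members in wild type only in part. In wild type at 4 d 1 member rose and 1 fell, where 27.9% of genes passed, and at 5 d 2 rose and 1 fell, where 35.4% passed. CA4 rose at both ages: at 5 d it had 197, 199 and 202 RPKM in light, against 96.5, 83.2 and 95.5 RPKM in the dark (1.12 ± 0.18, adjusted p = 8.41e-06), and at 4 d the change was 0.59 ± 0.18 (0.0124), lost without wild type 4 d light 1 (0.47, 0.0804). CA1 at 5 d had 505, 460 and 620 RPKM in light, against 314, 104 and 163 RPKM in the dark (1.45 ± 0.55, adjusted p = 0.0374). CA2 ran the other way at 5 d, with 1685, 1454 and 1792 RPKM in light, against 2926, 3718 and 4016 RPKM in the dark (-1.11 ± 0.42, adjusted p = 0.0368). CA6 was lower in light at 4 d (-0.93 ± 0.34, adjusted p = 0.0368). These last 3 calls were fragile: leaving out 1 library ended that of CA1 in 4 of 6 cases (adjusted p up to 0.158), of CA2 in 5 of 6 (up to 0.104) and of CA6 in 4 of 6 (up to 0.175). CA1 at 4 d had 1241 to 1785 RPKM in light, against 517 to 666 RPKM in the dark, a described difference of 1.31 ± 0.54. CA5 at 5 d was 0.29 (0.0703) and passed without wild type 5 d dark 1 (0.37, 0.0473) or wild type 5 d light 2 (0.36, 0.0481).

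In the mutant no member was called between light and dark by edgeR at 4 d, at 5 d or with glucose at 4 d, where 2.37%, 11.7% and 1.42% of all genes passed, and none in wild type with glucose, where 7.8% passed. In wild type with glucose CA1 was 1.58 ± 0.55 (adjusted p = 0.074), passed with DESeq2 (1.56, 0.0278), and was 1.19 (0.28) without the 2 doubtful dark libraries. CA1 in the mutant at 5 d was 1.25 ± 0.55 (adjusted p = 0.121), which became 1.72 (0.0135) without mutant library 2. It was -0.90 without the 2 high-KIN10 libraries, which left 1 mutant library at 5 d in light. CA5 there was 0.17 (0.386), which became 0.34 (0.0448) without mutant library 2 and -0.19 with that 1 library left. The light effect at 5 d differed between genotypes for CA4 (-1.24 ± 0.25 mutant minus wild type, adjusted p = 0.000535), where 27.3% of all genes passed. No other member passed at 5 d, and none passed with glucose, where 0.159% of genes passed. For CA1 at 5 d the 95% interval of that difference was -1.69 to 1.3 log2 units. The difference of CA2 at 5 d, 1.22 ± 0.59 (0.123), was 1.68 (0.00599) without mutant light 2. It was -0.97 without the high-KIN10 libraries, again with 1 mutant library left in light. At 4 d the described differences were -0.70 ± 0.25 for CA4 and 1.37 ± 0.48 for CA6.

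With age in the dark, CA2 and CA6 rose and CA4 fell in wild type. CA6 averaged 26.1, 27.8 and 35.6 RPKM at 3, 4 and 5 d in the mutant (SD 6.98, 8.50 and 4.69, n = 3 each) and 55.8, 188 and 224 RPKM in wild type (SD 18.0, 48.8 and 79.6). CA2 averaged 340, 149 and 112 RPKM in the mutant (SD 106, 48.7 and 45.0) and 877, 2025 and 3553 RPKM in wild type (SD 244, 364 and 564). CA4 averaged 161, 95.1 and 77.7 RPKM in the mutant (SD 6.36, 11.7 and 27.7) and 202, 140 and 91.7 RPKM in wild type (SD 18.3, 3.88 and 7.44). From 3 d to 4 d in wild type 2 members rose and 1 fell, where 24.2% of genes passed: CA6 by 1.75 ± 0.34 (adjusted p = 0.000398), CA2 by 1.21 ± 0.42 (0.0333) and CA4 by -0.53 ± 0.18 (0.0273). Leaving out 1 library ended the call of CA2 in 4 of 6 cases (adjusted p up to 0.135) and that of CA4 in 5 of 6 (up to 0.115). From 4 d to 5 d in wild type 1 member was called, where 9.42% of genes passed: CA4 by -0.61 ± 0.18 (0.0293), lost in 6 of 6 cases when 1 library was left out (0.0578 to 0.104). CA1 fell short there (-1.62 ± 0.55, adjusted p = 0.0571), with 314, 104 and 163 RPKM at 5 d, against 666, 517 and 605 RPKM at 4 d. It passed without wild type 5 d dark 1 (-2.16, 0.0395), with DESeq2 (0.0195) and with the replicate block (-1.68, 0.0467).

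In the mutant from 3 d to 4 d in the dark 3 members fell, where 24.2% of all genes passed: CA4 by -0.76 ± 0.18 (adjusted p = 0.00289), CA5 by -0.51 ± 0.13 (0.00424) and CA2 by -1.19 ± 0.42 (0.0366), the last lost in 4 of 6 cases when 1 library was left out (up to 0.163). From 4 d to 5 d in the mutant no member passed in the dark, where 11.6% of genes did, nor in light, where 2.6% did. CA4 from 4 d to 5 d in the dark in the mutant was -0.29 ± 0.18 (0.306), and -0.62 (0.0132) without mutant 5 d dark 1. The change from 3 d to 4 d in the dark differed between genotypes for CA2 (-2.40 ± 0.59 mutant minus wild type, adjusted p = 0.0108), CA6 (-1.65 ± 0.48, 0.0249) and CA5 (-0.71 ± 0.18, 0.012), where 10.6% of genes passed. Leaving out 1 library ended the call of CA6 in 5 of 12 cases (up to 0.085). From 4 d to 5 d no difference passed, where 0.235% of genes did.

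In light from 4 d to 5 d in wild type none of the 5 members other than CA1 was called, where 26.8% of genes passed. CA1 had 505, 460 and 620 RPKM at 5 d, against 1785, 1241 and 1407 RPKM at 4 d, a described difference of -1.48 ± 0.55. CA6 passed with only the groups compared in the fit (0.62, 0.0104). From 3 d in the dark to 4 d in light, 3 members fell in the mutant, where 34% of all genes passed, and none was called in wild type by edgeR, where 28.1% passed. The mutant changes were -0.87 ± 0.18 for CA4 (adjusted p = 0.000474), -0.41 ± 0.13 for CA5 (0.0127) and -1.11 ± 0.42 for CA2 (0.0396). Leaving out 1 library ended the call of CA2 in 4 of 6 cases (up to 0.2) and of CA5 in 2 of 6 (up to 0.055). In wild type CA6 was 0.82 ± 0.34 (0.068), and 1.11 (0.0301) without wild type 3 d dark 2. It also passed with DESeq2 (0.83, 0.0453) and with only the groups compared in the fit (0.80, 0.0387), as did CA2 in that fit (0.90, 0.0285).

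Other carbonic anhydrases and enzymes that use bicarbonate were counted from lists, with at most 3 genes named per list by level. The alpha class is the exception, with all 4 tested genes named. Of 8 alpha carbonic anhydrases, 4 passed the filter on low counts. In the mutant 1 of the 4 rose and 1 fell at 3 d, 4 d and 5 d in the dark, 1 rose and none fell at 5 d in light, and none was called with glucose. Over all genes 17.3% rose and 14.3% fell at 3 d dark, and 29.5% rose and 28.5% fell at 4 d dark. At 5 d 29.9% rose and 31.4% fell in the dark, and 33.4% rose and 26.4% fell in light. The untreated counts of gamma genes between genotypes below stand against these same shares. ACA1, a chloroplast protein that reaches the organelle by the secretory route, had 2.17 ± 1.10 RPKM in the mutant and 7.24 ± 1.85 RPKM in wild type at 4 d in the dark (-1.72 ± 0.33, adjusted p = 3.71e-05). With glucose it was higher in both genotypes and both light settings, by 3.34 ± 0.32 in the mutant in the dark (1.74e-09), 2.77 ± 0.31 in the mutant in light (1.9e-08), 1.52 ± 0.29 in wild type in the dark (9.16e-05) and 1.64 ± 0.29 in wild type in light (3.03e-05). ACA2, named after its values were seen, was lower with glucose in the mutant in the dark (-2.71 ± 0.61, 0.000635, with 0.773 ± 0.242 RPKM with glucose and 5.01 ± 1.04 RPKM without) and in light (-4.18 ± 0.70, 1.55e-05, with 0.318 ± 0.29 and 5.96 ± 6.11 RPKM). ACA7 was called in the mutant in light, higher with glucose (1.09 ± 0.31, 0.00515), and ACA3 in wild type in light, lower with glucose (-1.21 ± 0.40, 0.0157, with 2.89 ± 0.516 RPKM with glucose and 6.73 ± 6.38 RPKM without). All 5 genes of the gamma list, gamma carbonic anhydrases and gamma-like (CAL) proteins of mitochondrial complex I, were tested. In the mutant none was called at 3 d in the dark, and at 5 d in the dark 1 was higher and 2 were lower. At 4 d in the dark 2 were higher and 1 lower in the mutant, and at 5 d in light 3 were higher and 1 lower. GAMMA CA2 had 82.8 ± 0.855 RPKM in the mutant and 64.5 ± 4.00 RPKM in wild type at 4 d in the dark (0.36 ± 0.11, adjusted p = 0.00512). GAMMA CAL2 had 55.7 ± 8.07 RPKM in the mutant and 124 ± 4.64 RPKM in wild type at 5 d in the dark (-1.15 ± 0.11, adjusted p = 1.35e-10). With glucose, 4 of 5 were higher in each genotype and light setting, and GAMMA CAL2 was lower in wild type in the dark (-0.53 ± 0.11, 0.000153) and in light (-0.33 ± 0.11, 0.0141). Of all genes, 40.7% passed in either direction in the mutant in the dark and 43% in the mutant in light. In wild type 42.9% passed in the dark and 36.4% in light. Between genotypes in light with glucose 2 of the 5 were higher in the mutant, where 4.29% of all genes were.

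Of 11 bicarbonate-using enzymes, 10 passed the filter. In the mutant 3 fell and 1 rose at 3 d dark, 6 fell and 3 rose at 4 d dark and at 5 d dark, and 5 fell and 3 rose at 5 d light. Over all genes 14.3% fell and 17.3% rose at 3 d dark, and 28.5% fell and 29.5% rose at 4 d dark. At 5 d 31.4% fell and 29.9% rose in the dark, and 26.4% fell and 33.4% rose in light. The untreated counts between genotypes for the lists and markers below stand against these same shares. With glucose 8 rose and none fell in the mutant in the dark, 8 rose and 1 fell in the mutant in light, 4 rose and 3 fell in wild type in the dark, and 2 rose and 2 fell in wild type in light, where 40.7%, 43%, 42.9% and 36.4% of all genes passed. The list's median log2 change between genotypes was -0.86 at 4 d dark, against 0.01 over all genes. CAC2 and CAC3, subunits of the plastid acetyl-CoA carboxylase, changed by -1.44 ± 0.16 (adjusted p = 8.34e-09) and -1.39 ± 0.15 (4.36e-09) at 4 d in the dark. CARA, the small subunit of carbamoyl phosphate synthetase, went the other way (78.0 ± 6.03 RPKM in the mutant and 26.8 ± 1.23 RPKM in wild type, 1.54 ± 0.17, adjusted p = 6.61e-09). Of 11 genes of stomatal carbon dioxide signalling, 3 rose and 3 fell in the mutant at 4 d dark, where 29.5% of all genes rose and 28.5% fell. At 5 d light 4 of the 11 rose and 5 fell, where 33.4% of all genes rose and 26.4% fell. The aquaporin PIP2A, the highest of them, had 217 ± 10.8 RPKM in the mutant and 1075 ± 93.0 RPKM in wild type at 4 d in the dark (-2.31 ± 0.25, adjusted p = 3.71e-09), and the kinase MPK4 changed by 0.76 ± 0.11 (2.5e-07). Of 5 genes for Rubisco small subunits and activase, 3 fell at 3 d dark, 4 at 4 d dark, 4 at 5 d dark and 5 at 5 d light, and none rose. RBCS1A had 1869 ± 333 RPKM in the mutant and 16563 ± 1505 RPKM in wild type at 5 d in light (-3.15 ± 0.32, adjusted p = 3.98e-10), and RCA, Rubisco activase, changed by -3.30 ± 0.35 (1.02e-09). Reads of the near-identical small subunit genes may have been divided among them. Guard cell markers summed to 15.9 to 36.5 unscaled RPKM in mutant libraries and 19.1 to 39.9 unscaled RPKM in wild type libraries, with no marker at 0 in all 3 libraries of a group. Of the 6, 3 fell and 1 rose in the mutant at 4 d dark, 5 d dark and 5 d light, and 1 fell and none rose at 3 d dark. Root markers summed to 731 to 3302 unscaled RPKM in mutant libraries and 546 to 3120 unscaled RPKM in wild type libraries. Of the 6, none fell and 1 rose at 3 d dark, 3 fell and 1 rose at 4 d dark, 4 fell and 1 rose at 5 d dark, and 1 fell and 2 rose at 5 d light. Between genotypes with glucose no guard cell marker was called. In light with glucose 1 root marker rose and 1 fell, where 4.29% of all genes rose and 5.17% fell. Of the markers, 1 guard cell marker is also in the signalling list and 2 green tissue markers in the Rubisco list.

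Genes with the most similar profile were sought by the Pearson correlation of mean log2 RPKM over the 14 groups, a description in which all points share the libraries and the genotype contrast. CA1 came closest to AT5G48490 (r = 0.965), the light-harvesting protein gene LHCB2.3 (0.964), PAT2 (0.952), AT1G18610 (0.945) and AT1G51402 (0.944). CA2 came closest to AT3G26240 (0.986), the aldehyde dehydrogenase family gene ALDH11A3 (0.981) and NF-YB2 (0.98), which encodes a subunit of a CCAAT-binding factor. CA3 came closest to LOG3 (0.961), which encodes a cytokinin-activating enzyme, AT2G04740 (0.952) and the abscission peptide gene IDA (0.951). These genes were low, at 0.724 to 5.77 RPKM for LOG3, 5.18 to 11.8 for AT2G04740 and 0 to 7.7 for IDA. CA3 itself ran from 1.24 to 20.8 RPKM. CA4 came closest to AT1G44920 (0.977), LUT2 (0.977), a carotenoid cyclase gene, and AT4G34090 (0.968). CA5 came closest to AT1G51570 (0.988), AT1G28100 (0.983) and ABCG12 (0.983), a transporter of cuticular wax. CA6 came closest to AT3G07350 (0.987), AT2G28120 (0.985) and AT1G80440 (0.983). Between members, r was 0.94 for CA2 and CA5, 0.85 for CA1 and CA5, 0.80 for CA1 and CA2, -0.82 for CA1 and CA3, and 0.08 for CA4 and CA6.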

How the data were processed

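RNA from whole Arabidopsis seedlings was sequenced, and the authors deposited read counts per transcript model in 3 tables. Reads were aligned with STAR to TAIR10, per the submitters' processing notes, and counted with featureCounts 1.6.2, per the file headers, which show a read counted for every overlapping model. The transcript lengths also come from the deposited tables. Of 48 count columns, 0 were left unmapped, and 12 columns of 3 d dark seedlings were summed in pairs to give 42 libraries in 14 groups of 3. Depth was 4956025 to 26126836 counts.

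The longest of each gene's models stood for it (40745 rows, 32678 genes), and these held 65.23% of all counts. edgeR 4.0.16 (R 4.3.3) was run with TMM scaling, filterByExpr and a robust quasi-likelihood fit with 14 group means, and p-values were adjusted by Benjamini-Hochberg over 22586 genes (threshold 0.05, 28 residual degrees of freedom). RPKM was computed here from the TMM-scaled counts. Marker sums are RPKM without TMM scaling. The test was checked on simulated data. Coding sequences were aligned with mafft 7.526.

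The members and lists were chosen with earlier results of these data known. All 6 members are named in every comparison, list genes by highest mean level (at most 3 a list, apart from the alpha carbonic anhydrases), and similar genes by correlation (5 for CA1, 3 for the others, prior count 2). Alternatives were DESeq2 1.42.0, no filter on low counts, other models per gene, a fit of the groups compared alone, a replicate block, each 3 d series alone, and leaving out libraries. Leaving out the high-KIN10 libraries was added after seeing the data, and the 2 dark glucose libraries left out were singled out by their values in these data. Same-numbered libraries deviated together in every pair only between the mutant and wild type at 3 d in the dark (correlations 0.148, 0.139 and 0.19), where the block changed no call.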

Additional observations from a re-analysis of the deposited data

Results flagged for a closer look

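For 8 values the effect in the mutant differed from that in wild type by the interaction test of edgeR, given as mutant effect minus wild type effect on the log2 scale with the adjusted p. In the dark, the effect of glucose differed for CA1 (3.38, 0.00107), CA2 (3.25, 0.000101), CA5 (1.12, 1.56e-05) and CA6 (1.98, 0.00182), where 37.3% of all genes passed. Without the libraries labelled mutant 2 and wild type 2 the differences of these 4 members were 2.38 (0.0257), 2.61 (0.00323), 1.12 (0.000234) and 1.16 (0.0524). The change from 3 d to 4 d in the dark differed for CA2 (-2.40, 0.0108), CA5 (-0.71, 0.012) and CA6 (-1.65, 0.0249), where 10.6% of all genes passed. The call of CA6 fell short in 5 of 12 fits that left out 1 library (adjusted p up to 0.085). The effect of light at 5 d differed for CA4 (-1.24, 0.000535), where 27.3% of all genes passed. This difference was -1.6 without the mutant light libraries that had high KIN10, which left 1 mutant library at 5 d in light.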

How the results depend on the processing

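Of 36 member values between mutant and wild type, 22 passed, against 22 to 27 under the alternatives and 20 to 24 when 1 library was left out. Of 36 between light and dark, 5 passed, against 8 with DESeq2, 2 with no filter on low counts and 3 to 10 when 1 library was left out. Of 24 for glucose, 15 passed (13 to 17 when 1 library was left out). Without the CA1 values that use the 4 d light libraries, 5 of 34 passed between light and dark, 14 of 22 for glucose and 10 of 44 between ages. Of 48 between ages, 11 passed, against 7 with no filter, 17 with only the groups compared in the fit and 8 to 14 when 1 library was left out. Of 30 differences between genotypes, 8 passed (7 to 9). Of 61 called values, 39 held in every fit that left out 1 library. The 61 include CA1 values described above with no test, for glucose in wild type in light and for 5 d over 4 d in wild type in light. The glucose value held in every such fit and the age value in none. With the replicate block 1 call changed, CA1 in wild type in the dark at 5 d over 4 d (-1.68, adjusted p = 0.0467, against -1.62 and 0.0571), and no other.

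Signs turned for these uncalled values, and the cause was not tested. Without the dark glucose libraries labelled mutant 2 and wild type 2, CA3 turned for light over dark in wild type with glucose (0.82, against -0.74), for glucose in wild type in the dark (-0.11, against 1.44) and for the genotype difference of that effect (0.15, against -1.85), and CA1 for the genotype difference of light with glucose (0.14, against -0.86). Leaving out the high-KIN10 libraries left 1 mutant library at 5 d in light. Without them, CA1 turned for light over dark in the mutant at 4 d (-0.06, against 0.69) and at 5 d (-0.90, against 1.25) and for 5 d over 4 d in light (-0.57, against 0.80), CA5 for light over dark in the mutant at 5 d (-0.19, against 0.17), and CA2 for the genotype difference of light at 5 d (-0.97, against 1.22). Leaving out 1 library gave ranges across 0 for CA3 between genotypes in the dark with glucose (-0.13 to 1.89), for light in wild type with glucose (-1.20 to 0.82) and for glucose in wild type in the dark (-0.12 to 1.90), for CA1 for light in the mutant at 4 d (-0.06 to 1.01), for CA5 in the mutant in light at 5 d over 4 d (-0.30 to 0.00), and for CA4 for the genotype difference of 5 d over 4 d in the dark (-0.01 to 0.49). With counts summed over a gene's models, 74 of 84 group means moved by more than the SD between libraries (0.515 to 3.62 times the reported level, median 2.08). A read counts once for every model it overlaps, so this sum holds the same reads repeatedly. Its shifts therefore depend on the number of models (5 for CA2, 1 for CA3) and do not measure uncertainty in level. With unscaled library sizes 15 of 84 group means moved by more than that SD (0.798 to 1.13 times). CA3, at 16 to 342 counts a library, is the member that depth limits most.

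The counts over all genes behind the backgrounds moved by more than 1.5 times in these comparisons. With only the groups compared in the fit, the calls numbered 8 for light over dark in the mutant at 5 d (against 2652), 163 at 4 d (535), 177 for 5 d over 4 d in the dark in the mutant (2609) and 3539 in wild type (2127), 0 in light in the mutant (587), 4986 for 4 d light over 3 d dark in the mutant (7674), 3774 between genotypes in light with glucose (970 higher and 1167 lower), and, for genotype differences, 3421 for light at 5 d (6175), 11 for light with glucose (36) and 3785 for 4 d over 3 d in the dark (2392). Without the high-KIN10 libraries they numbered 1144 for light in the mutant at 4 d, 608 with glucose (321), and 80 and 357 for the genotype differences of light with glucose and 5 d over 4 d in the dark (53). Counts that rest on the 1 mutant library then left at 5 d in light are not given. DESeq2 gave 871, 550, 974, 134 and 404 for light in the mutant at 4 d and with glucose, 5 d over 4 d in light in the mutant, and the last 2 of those differences. Without the 2 dark glucose libraries the counts were 1076 between genotypes in the dark with glucose (0), 1142 for light in wild type with glucose (1762), 5510 for the difference of the dark glucose effect (8416), 1086 for 5 d over 4 d in light in the mutant, 4 for the difference of light with glucose and 116 for that of 5 d over 4 d in the dark. That last difference had 27 calls with no filter and 30 with the replicate block.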
